A study of Mus musculus with 6 samples.

Results

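The mitochondrial ribosomal proteins described here are the mouse genes whose symbols are Mrpl or Mrps followed by a number, found on the array through the RefSeq accession of each probe. There were 75 of them among 20887 named genes, 49 of the large (Mrpl) and 26 of the small (Mrps) subunit, on 96 probes. A probe was tested if it was well above background in the Cy5 channel on all 3 arrays of at least 1 group, and 74 genes passed, 48 large and 26 small, each of them well above background on all 6 arrays. The gene that did not pass was Mrpl21, whose probe was above background on 0 arrays.

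The mitochondrial ribosome translates the few messages of the mitochondrial genome, all of them for membrane subunits of the respiratory chain and the ATP synthase. Its RNAs are made in the organelle, whereas every protein of its large and small subunits is encoded in the nucleus, made in the cytosol and imported. Some of these proteins descend from bacterial ribosomal proteins and others are specific to mitochondria. Tubule segments that transport salt depend on oxidative phosphorylation and are rich in mitochondria.

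The arrays compared collecting duct cells of newborn mice with and without a floxed Bdkrb2, which encodes the bradykinin B2 receptor. MUT pools were Hoxb7cre+; R26RtdTomato; Bdkrb2f/f and WT pools Hoxb7cre+; R26RtdTomato; Bdkrb2+/+, both C57BL/6, salt-stressed, at postnatal day 1, with 3 pools per group and GFP+ and tdTomato+ cells taken by FACS. Both groups thus carried the Cre and the reporter, and Hoxb7 drives the Cre in the ureteric bud and its derivatives. Each two-colour Agilent array held a pool in Cy5 and WT pool 1 in Cy3, from 0.5 µg of total RNA, so the array of WT pool 1 set that pool against itself. Dyes were not swapped. The sources used here do not give how many mice made up a pool, and p-values measure the spread between these pools.

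Libraries differed in ways that bear on every value below. The SD of log2 ratios over tested probes ran from 0.15 to 0.25 for WT and from 0.50 to 0.65 for MUT, and 27022 to 31310 probes were above background. Every ratio is to WT pool 1, so the 0.15 is that pool against itself and the MUT values hold the group difference. Between WT pools the SD of the difference was 0.22 to 0.25. In MUT it was 0.45 and 0.44 for pool 1 against pools 2 and 3, and 0.21 between those. Collecting duct markers were present, but all 10 tested principal cell markers and all 13 intercalated cell markers were called lower in MUT. The summed Cy5 intensity of the principal cell list ranged from 74959 to 84814 for WT and from 16263 to 21978 for MUT. Markers of other cells moved too: 10 of 11 nephron progenitor markers were called higher, with summed intensity 25617 to 35571 in WT and 92317 to 138784 in MUT, and 9 of 11 renal stroma markers were called higher, with 15972 to 45657 against 99333 to 129259. All 10 thick limb and distal tubule markers were called lower, with 189788 to 331202 in WT and 37630 to 52735 in MUT. Lower calls were also made for 5 of 11 proximal tubule markers (51092 to 94178 against 43325 to 51345), 10 of 11 endothelial markers (58386 to 67562 against 34192 to 34979) and 6 of 6 erythroid markers (153602 to 361897 against 63389 to 85951). Slc4a1 is in both the erythroid and the intercalated cell list and was counted in each. Of 10 leukocyte markers 8 were called higher and 1 lower (6627 to 10531 against 13903 to 21440). With spike-in scaling the median of the proximal tubule list turned above 0, to 0.60, and the other lists kept the sign of their median. No list was at 0 in either group, and the part of these markers in the results below was not tested. The deleted gene gives no check of the labels, because the Bdkrb2 probe was above background on 0 of 6 arrays. The Hoxb7 value was −0.69 ± 0.12 (SE, adjusted p = 0.00434, limma, 3 pools per group), and 0.26 with spike-in scaling.

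Transcripts of mitochondrial ribosomal proteins were lower in MUT than in WT pools, by a small amount and in both subunits, after loess, although the sign of both medians turned with median centring and with spike-in controls. Differences below are MUT minus WT in log2 ratio after loess within each array, so they are relative to probes of the same brightness, and a gene is called at a limma p adjusted over all 29002 tested probes under 0.05. Called lower were 25 of the 74 tested genes (33.8%), against 18.8% of the 14585 tested genes on the array, and 0 were called higher, against 14% of all genes. Another 41 differences were below 0 without a call, which makes 66 of 74 below 0 against 51.6% of all genes. At an unadjusted limma p under 0.05, 39 of the 74 (52.7%) were lower, against 25.1% of all genes, and 0 higher, against 20.8%. Of all called probes 44.2% were higher, which became 77.3% with median centring and 98.9% with spike-in controls. In bulk RNA, fewer cells of a type and less RNA per cell cannot be told apart.

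The large subunit had 17 of 48 genes called lower (35.4%) and the small subunit 8 of 26 (30.8%). The large-subunit median per pool, in the order of pool numbers 1 to 3, was −0.04, −0.12 and −0.01 for WT and −0.29, −0.33 and −0.37 for MUT. The small-subunit median was 0.05, −0.11 and 0.04 in WT and −0.34, −0.37 and −0.32 in MUT. All MUT pools lay below all WT pools in both subunits, with WT pool 2 the lowest of the WT pools. The median difference was −0.25 in the large and −0.32 in the small subunit, against −0.02 over all genes. The large-subunit median minus the small-subunit median was −0.09, −0.01 and −0.05 in WT and 0.05, 0.04 and −0.05 in MUT, so the groups overlapped. Differences were more spread among small-subunit genes, with an SD of 0.32, than among large-subunit genes, with an SD of 0.24, but without Mrps6 the SD of the small subunit was 0.25.

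**Figure D1:**
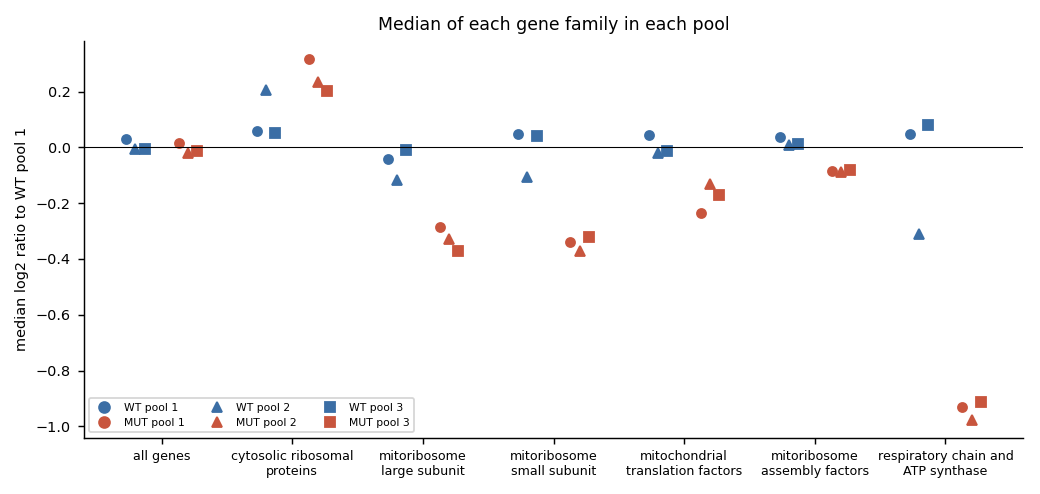
Median log2 ratio to WT pool 1 (y axis) of each gene family (x axis) in WT pools (blue) and MUT pools (red), with a symbol shape per pool number. Both mitoribosome subunits sit between −0.12 and 0.05 in WT and between −0.37 and −0.29 in MUT, cytosolic ribosomal proteins near or above 0, and respiratory chain subunits between −0.98 and −0.91 in MUT.

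The direction of both subunits depends on the scale: the medians were −0.25 and −0.32 after loess, 0.10 and 0.01 with median centring, and 0.71 and 0.64 when arrays were set to spike-in controls. The spike-in shift itself was 0.01, 0.39 and 1.03 in WT and −0.70, −0.56 and −0.18 in MUT pools, so WT pools alone spanned about as much as the groups differed, and the sources used here do not say whether each labelling reaction received the same amount. Median centring and spike-in scaling moved the median of all genes to 0.25 and 0.94. Relative to it, the large subunit was −0.23 after loess, −0.15 with median centring and −0.23 with spike-ins, and the small subunit −0.30, −0.23 and −0.30. Spike-in scaling takes 1 value from each array and so adds 0.95 to each difference. It could not change these relative medians, and their repeat is no separate support. Over the reported setting and 19 alternatives, the relative medians ran from −0.25 to −0.15 for the large and from −0.36 to −0.17 for the small subunit. The small-subunit median was the lower one in each of these settings, by 0.02 to 0.12. Spike-in scaling, the pool number as a block and other eBayes options could not change that order. The share of members called lower was not above that of all genes in each setting. With median centring 1 member (1.35%) was called lower, Mrps6, against 6.33% of all genes. With spike-ins 0 members were called lower against 1.14% of all genes, and 22 (29.7%) higher against 61.4%. Leaving out WT pool 1 gave 15 lower calls (20.3%) against 12.8% of all genes. Leaving out WT pool 3 gave 10 (13.5%), near the 11.2% of all genes.

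**Figure D2:**
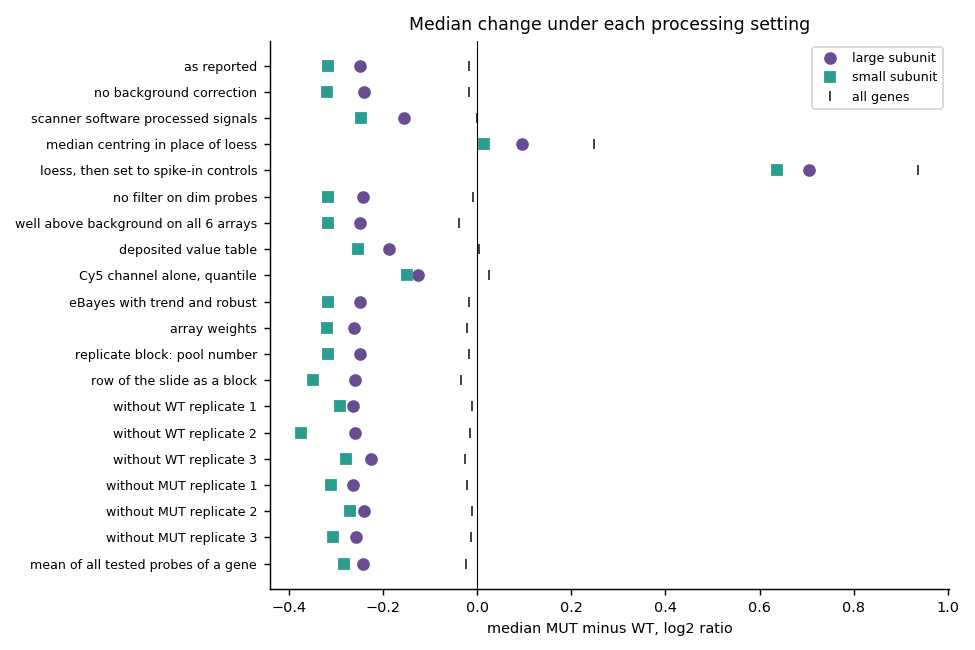
Median MUT minus WT log2 ratio (x axis) of large-subunit genes (circles), small-subunit genes (squares) and all tested genes (ticks) under each processing setting (rows). In every row both subunits lie to the left of the tick for all genes, while median centring and spike-in scaling move all 3 above 0. The spike-in shift is the same for every gene, so it leaves the order as after loess.

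Position on the slide differed between groups, since MUT pools and WT pool 1 lay in row 1 and WT pools 2 and 3 in row 2. A difference fitted with the row as a block is thus the MUT mean minus WT pool 1 alone, the pool set against itself. Its calls cannot tell an effect of the row from a property of that pool. With the row as a block 3 of 74 members (4.05%) were called lower, Mrps6, Mrps16 and Mrpl12, a smaller share than the 7.45% of all genes, and the medians were −0.26 and −0.35. Within row 1, all 3 MUT pools were below WT pool 1 for 57 of 74 members (77%), against 38.4% of all genes. That count compares the same arrays as the row fit, so it is no separate support.

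Sizes were modest. Differences below −0.5 were found for 15 of 74 members (20.3%), against 16.2% of all genes, and below −1 for 1 member (1.35%), against 5.35%. The 3 pools of each group did not overlap, with MUT lower, for 48 members (64.9%) against 28.3% of all genes. This held for 29 of 48 large-subunit (60.4%) and 19 of 26 small-subunit genes (73.1%). The 1 member that did not overlap with MUT higher was Mrps17 (background 24.2%), whose values were 0.06, −0.10 and −0.11 in WT and 0.29, 0.11 and 0.14 in MUT. Its difference of 0.23 ± 0.10 (SE) was not called (limma adjusted p = 0.153).

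**Figure D3:**
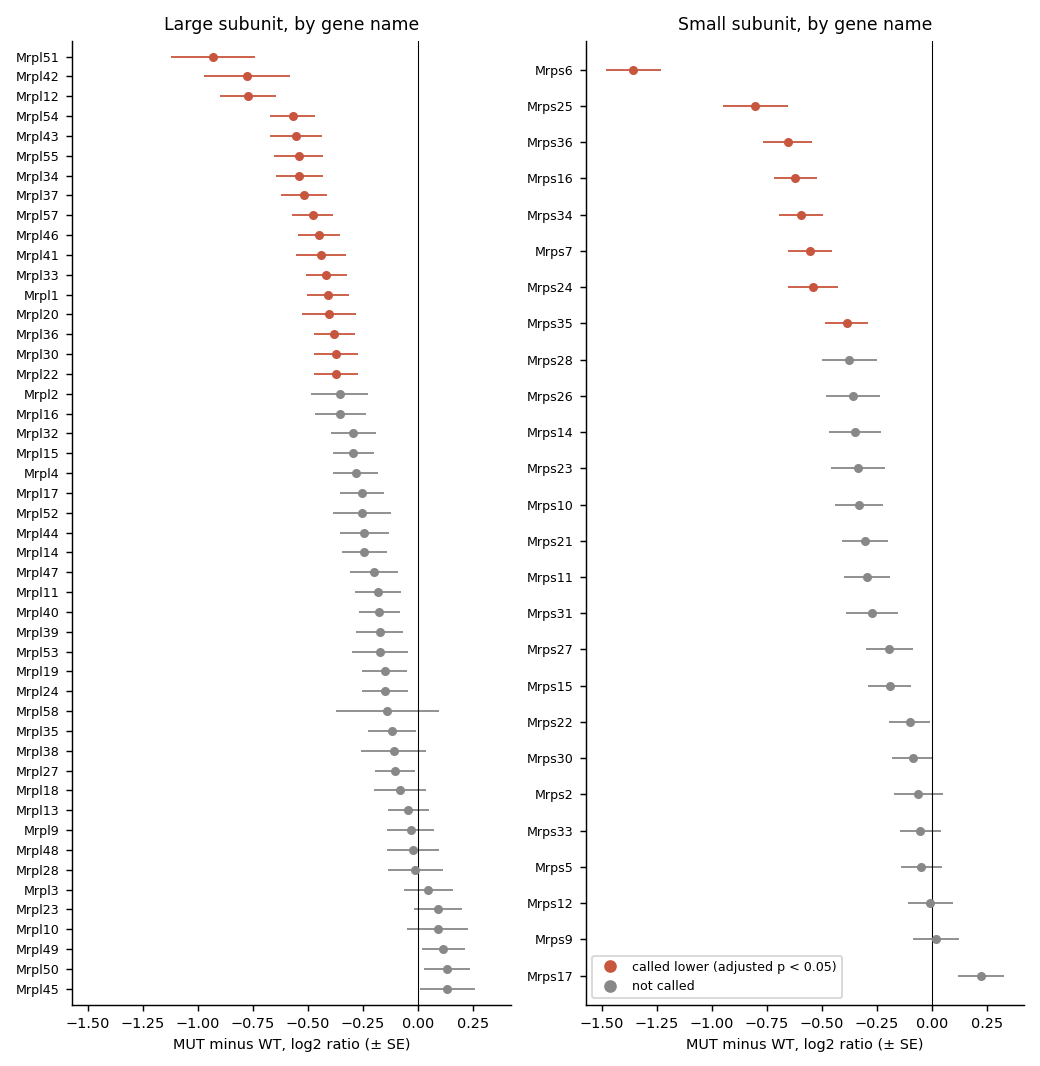
Difference MUT minus WT in log2 ratio (x axis) with its SE for the 74 tested genes (rows), large subunit on the left and small subunit on the right, 3 pools per group. Called genes are red: 17 large-subunit and 8 small-subunit genes, all left of 0, with Mrps6 lowest at −1.36 after loess; with spike-in scaling only Mrps6 stays below 0.

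The genes were also grouped by the origin of the protein, with Mrps30 counted in the large subunit, where it is found, and with Mrpl58 and Mrps36 in no class. In the large subunit 9 of 29 proteins with a bacterial homologue (31%) and 8 of 19 mitochondria-specific proteins (42.1%) were called lower. Of all genes 18.8% were called lower. The medians of these classes were −0.25 and −0.24. In the small subunit the counts were 4 of 15 (26.7%) and 3 of 9 (33.3%), with medians of −0.30 and −0.33. Mrps30 and Mrps36 carry small-subunit names without being small-subunit ribosomal proteins. Mrps30 is a protein of the large subunit in the assembled ribosome, and it had 0.04, −0.02 and 0.00 in WT and −0.12, −0.10 and −0.02 in MUT, a difference of −0.09 ± 0.09 (SE, limma adjusted p = 0.525). Mrps36 is an adaptor of the 2-oxoglutarate dehydrogenase complex of the citric acid cycle rather than a ribosomal protein, and it was among the lowest.

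The promoters of 4 members are shown because the values of these genes frame the results: Mrpl12 and Mrpl10, partners in the ribosomal stalk, of which the first was called and the other was not, Mrpl51, which starts head to head with a gene called in the opposite direction, and Mrps25, the second lowest of the small subunit. Each runs 5′ to 3′ along the gene's strand up to the base before its annotated start, or to the nearest other gene, in RefSeq's GRCm38.p6. The stretches are chr11:120484387-120484636 (+) for Mrpl12, chr11:97041370-97041581 (+) for Mrpl10, chr6:125192101-125192199 (+) for Mrpl51 and chr6:92184024-92184273 (−) for Mrps25. Capitals mark the core of the NRF1 site (GCGCA and GCGC with any 1 base between them, on either strand) or CCGGAAG, the core of the ETS site that GABPA can bind.
Mrpl12: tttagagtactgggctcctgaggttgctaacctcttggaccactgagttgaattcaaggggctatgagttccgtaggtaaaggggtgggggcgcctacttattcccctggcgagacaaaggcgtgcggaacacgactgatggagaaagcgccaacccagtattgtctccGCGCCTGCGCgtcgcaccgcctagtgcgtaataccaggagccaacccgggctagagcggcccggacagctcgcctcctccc
Mrpl10: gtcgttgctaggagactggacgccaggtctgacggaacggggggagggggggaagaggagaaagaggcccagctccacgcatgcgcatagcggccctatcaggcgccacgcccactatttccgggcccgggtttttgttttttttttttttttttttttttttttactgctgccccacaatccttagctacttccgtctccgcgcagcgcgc
Mrpl51: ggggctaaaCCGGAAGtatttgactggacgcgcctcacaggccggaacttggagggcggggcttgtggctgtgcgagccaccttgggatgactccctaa
Mrps25: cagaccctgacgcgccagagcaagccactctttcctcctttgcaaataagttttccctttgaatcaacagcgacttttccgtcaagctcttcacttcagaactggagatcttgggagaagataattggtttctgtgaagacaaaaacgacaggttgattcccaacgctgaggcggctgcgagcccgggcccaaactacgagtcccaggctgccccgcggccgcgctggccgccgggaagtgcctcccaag
The Mrpl12 stretch held an NRF1 match and the Mrpl51 stretch an ETS match, and the stretches of Mrpl10 and Mrps25 held neither. Over members with a promoter window, the NRF1 core was in 3 of 22 called lower (13.6%) and 10 of 43 not called (23.3%). The ETS core was in 7 (31.8%) and 15 (34.9%) of these.

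Promoter windows from 250 bases before to 50 after the start were at hand for 66 of the 75 members and for 17492 protein-coding genes. The ETS core, on either strand, was in 23 member genes (34.8%) against 12.9% of protein-coding genes. The NRF1 core was in 13 (19.7%) against 7.17%. The YY1 core AAGATGGC was in 11 (16.7%) against 3.57%, the TATA box TATAAA in 5 (7.58%) against 14.8%, and the E-box CACGTG in 4 (6.06%) against 8.91%. The ETS and YY1 cores can overlap by the letters AAG, and a match is a description of the sequence. The median difference was −0.25 with and −0.26 without the NRF1 core, −0.25 with and −0.27 without the ETS core, and −0.30 with and −0.25 without the YY1 core. For the cores found in few members it was −0.35 with and −0.25 without the TATA box (5 members with it), and −0.39 with and −0.24 without the E-box (4 members with it).

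In the large subunit, Mrpl51, a mitochondria-specific protein, was lowest. It had −0.08, −0.29 and 0.06 in WT and −1.43, −0.71 and −0.97 in MUT, with no overlap and MUT pool 1 the lowest. The difference was −0.93 ± 0.19 (SE), or 1.91-fold lower in MUT (limma adjusted p = 0.00975). Mrpl42, also mitochondria-specific, had 0.03, −0.45 and 0.04 in WT and −1.24, −0.86 and −0.61 in MUT. WT pool 2 came nearest to the MUT pools without reaching them, and the difference was −0.78 ± 0.20 (limma adjusted p = 0.0231).

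Mrpl12 forms the flexible stalk that recruits translation factors to the large subunit, and Mrpl10 anchors that stalk. Mrpl12 had −0.18, −0.48 and −0.15 in WT and −0.99, −0.96 and −1.17 in MUT, a difference of −0.77 ± 0.13 (limma adjusted p = 0.00385). Mrpl10 had −0.17, −0.28 and −0.20 in WT and 0.16, −0.31 and −0.22 in MUT. The Mrpl10 groups overlapped, with MUT pool 1 above and the other MUT pools among or just below the WT pools, and the difference was 0.09 ± 0.14 (limma adjusted p = 0.667). The difference between these genes' differences was not tested.

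Mrpl54, Mrpl43 and Mrpl55 completed the 6 lowest of the large subunit. Mrpl54 had −0.02, −0.16 and −0.03 in WT and −0.71, −0.68 and −0.53 in MUT (−0.57 ± 0.10). Mrpl43 had 0.02, −0.14 and 0.03 in WT and −0.75, −0.42 and −0.57 in MUT (−0.55 ± 0.12). Mrpl55, the counterpart of a bacterial protein of the subunit interface, had 0.06, −0.11 and 0.03 in WT and −0.68, −0.43 and −0.54 in MUT (−0.54 ± 0.11). In these genes every MUT pool was below every WT pool, and limma adjusted p-values were 0.00595, 0.0121 and 0.00939. The other 11 called large-subunit genes ran from −0.54 for Mrpl34 to −0.37 for Mrpl22, and the highest of the large subunit, Mrpl45, which is thought to tether the ribosome to the inner membrane, was not called at 0.13 ± 0.12 (limma adjusted p = 0.465).

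The 3 large-subunit genes with the smallest differences were Mrpl28, Mrpl48 and Mrpl9, at −0.01 ± 0.13, −0.02 ± 0.12 and −0.03 ± 0.11. Their groups overlapped, and the sign of these differences turned under several alternatives. Mrpl47 had 0.00, −0.06 and 0.13 in WT and −0.30, −0.11 and −0.10 in MUT. Its groups did not overlap, yet the difference of −0.20 ± 0.11 was not called (limma adjusted p = 0.218).

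**Figure D4:**
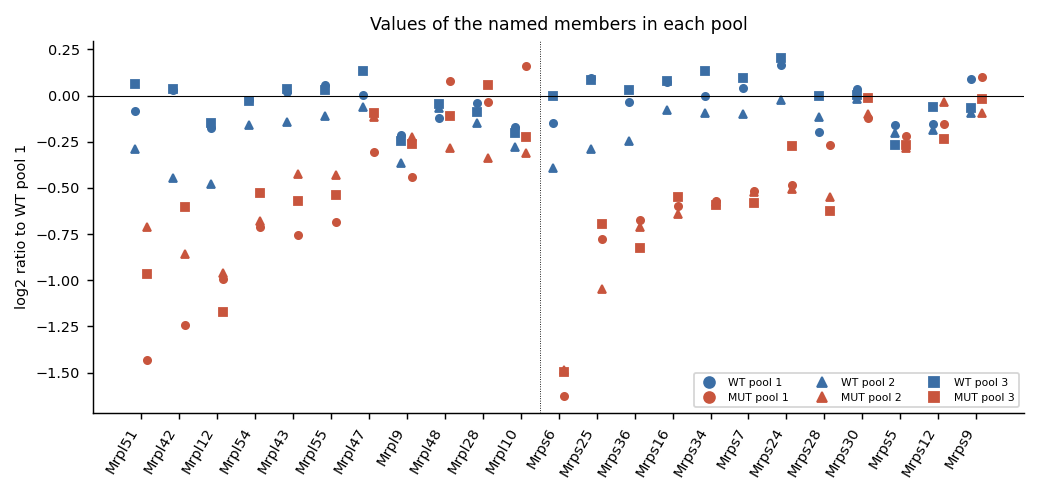
Log2 ratio to WT pool 1 (y axis) of single members (x axis) in WT pools (blue) and MUT pools (red), with a symbol shape per pool number and a dotted line between large-subunit genes on the left and small-subunit genes on the right. From Mrpl51 to Mrpl55 and from Mrps6 to Mrps24 the red points lie below all blue points, while for Mrpl9, Mrpl10, Mrps5, Mrps9 and Mrps12 they overlap.

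In the small subunit, Mrps6, the counterpart of a bacterial protein of the subunit's platform, was the lowest of all members. It had −0.15, −0.39 and 0.00 in WT and −1.63, −1.49 and −1.49 in MUT, with the MUT pools close together and no overlap. The difference was −1.36 ± 0.12 (SE), or 2.56-fold lower (limma adjusted p = 0.000482). It was called lower in 18 of 19 alternatives, and with spike-in scaling it was the only member below 0, at −0.40 (limma adjusted p = 0.324).

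Mrps6 shares its locus with Slc5a3, which is annotated as overlapping it and encodes the sodium and myo-inositol cotransporter that brings an osmolyte into medullary cells. One Slc5a3 probe had 0.03, 0.05 and 0.51 in WT and −2.85, −1.51 and −1.21 in MUT, a difference of −2.05 ± 0.39 (limma adjusted p = 0.00717). The other had −0.04, −0.39 and 0.08 in WT and −1.68, −1.62 and −1.43 in MUT, a difference of −1.46 ± 0.14 (limma adjusted p = 0.000563). Both Slc5a3 probes and the Mrps6 probe were lower in every MUT pool than in any WT pool, and which transcripts each probe takes up was not tested.

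Mrps25, a mitochondria-specific protein, had 0.09, −0.29 and 0.08 in WT and −0.78, −1.05 and −0.70 in MUT on its brighter probe. The difference was −0.80 ± 0.15 (limma adjusted p = 0.00642), with no overlap. Its dimmer probe had 0.23, 0.00 and 0.23 in WT and −1.09, 0.31 and 0.25 in MUT, so MUT pool 1 was low and the others high, and was not called (−0.33 ± 0.34, limma adjusted p = 0.516). Nr2c2, a nuclear receptor gene annotated as overlapping Mrps25, had 0.00, 0.02 and 0.31 in WT and −1.49, 0.13 and 0.37 in MUT. A low value of MUT pool 1 alone was not confined to this locus, since Hira, which faces Mrpl40, had −1.40, 0.21 and 0.26 in MUT. Over all tested probes, MUT pool 1 differed from MUT pools 2 and 3 with an SD of 0.45 and 0.44, against 0.21 between those pools.

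Mrps36, the dehydrogenase adaptor, had −0.04, −0.24 and 0.03 in WT and −0.67, −0.71 and −0.82 in MUT, a difference of −0.65 ± 0.11 (limma adjusted p = 0.00470). Mrps16, the counterpart of a bacterial protein of the subunit's body, had 0.08, −0.08 and 0.08 in WT and −0.60, −0.64 and −0.55 in MUT, a difference of −0.62 ± 0.10 (limma adjusted p = 0.00342). Mrps34, which is mitochondria-specific, had 0.00, −0.09 and 0.14 in WT and −0.57, −0.58 and −0.59 in MUT, a difference of −0.59 ± 0.10 (limma adjusted p = 0.00463). MUT pools lay close together in these genes, with an SD of 0.08, 0.05 and 0.01.

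Mrps7, on its brighter probe, and Mrps24 were also called lower. Both are counterparts of bacterial proteins of the subunit's head. That Mrps7 probe had 0.04, −0.10 and 0.10 in WT and −0.52, −0.52 and −0.58 in MUT (−0.55 ± 0.10, limma adjusted p = 0.00570), and its dimmer probe, given below, went the other way. Of the genes annotated as overlapping Mrps7, Mif4gd was called lower at −0.62 (limma adjusted p = 0.0158) and Gga3 was not called at 0.003. Mrps24 had 0.17, −0.02 and 0.21 in WT and −0.48, −0.50 and −0.27 in MUT (−0.54 ± 0.11, limma adjusted p = 0.0117). The last called gene was Mrps35, at −0.39 ± 0.10. Mrps28 missed the call although its groups did not overlap, with −0.20, −0.11 and 0.00 in WT and −0.27, −0.55 and −0.62 in MUT (−0.37 ± 0.12, limma adjusted p = 0.0614). Mrps12, Mrps9 and Mrps5, of bacterial ancestry, differed least, at −0.01 ± 0.10, 0.02 ± 0.11 and −0.05 ± 0.09, and their groups overlapped.

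A gene's value is that of its brightest tested probe, and other probes could differ. Of the 21 members with several tested probes, 9 had at least 1 called probe, all called probes were lower, and in 2, Mrpl43 and Mrps36, every probe was called. Of all tested probes on the array 26.1% were called in either direction. That share is per probe, and a gene with several probes has more ways to hold a called one. It is thus no background for the 9 of 21 genes. Among members called lower, the dimmer probe was not called at Mrpl41 (−0.02, limma adjusted p = 0.926), Mrpl22 (−0.14, limma adjusted p = 0.382), Mrps25 and Mrps7. The widest gap was at Mrps7, whose second probe had 0.00, −0.11 and 0.06 in WT and 0.38, 0.24 and 0.27 in MUT. That probe's difference of 0.31 ± 0.10 was opposite to the brighter one and not called (limma adjusted p = 0.0563). At Mrpl49 the brighter probe was at 0.12 and the dimmer was called at −0.37 (limma adjusted p = 0.0435), and at Mrps23 they were at −0.33 without a call and −0.58 with one (limma adjusted p = 0.00988). These pairs of probes for 1 gene were chosen after their values were seen. Mrps36, Mrpl23, Mrpl27 and Mrpl48 have annotated pseudogene copies, so their probes may take up other transcripts.

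Head-to-head arrangement was common, with a neighbour on the opposite strand starting within 1000 bases for 22 of 66 members (33.3%) against 8.48% of protein-coding genes. In 21 cases both genes were measured, counting Mrpl46 and Mrps11, which face each other, from either side. The neighbour was called lower in 3 cases (14.3%) and higher in 4 (19%), shares near the 18.8% and 14% of all genes, and in 9 its sign was opposite to the member's. In 3 pairs both genes were called in opposite directions. Ncapd2, a condensin subunit of mitotic chromosomes that faces Mrpl51, had −0.05, 0.22 and −0.04 in WT and 1.02, 0.74 and 0.89 in MUT, a difference of 0.84 ± 0.12 (limma adjusted p = 0.00247). Ska3, a kinetochore protein gene facing Mrpl57, was at 0.67 ± 0.10 (limma adjusted p = 0.00281) beside −0.48 ± 0.09 for Mrpl57. Twnk, the mitochondrial DNA helicase gene facing Mrpl43, was at 0.51 ± 0.14 (limma adjusted p = 0.0343). Only at Mrpl37 were both called lower, with Cyb5rl, which encodes a cytochrome b5 reductase-like protein, at −1.08 ± 0.15 (limma adjusted p = 0.00224) beside −0.52 ± 0.11. The opposite signs at Mrpl51, Mrpl57 and Mrpl43 held with median centring, and with spike-ins both genes of each pair were above 0.

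**Figure D5:**
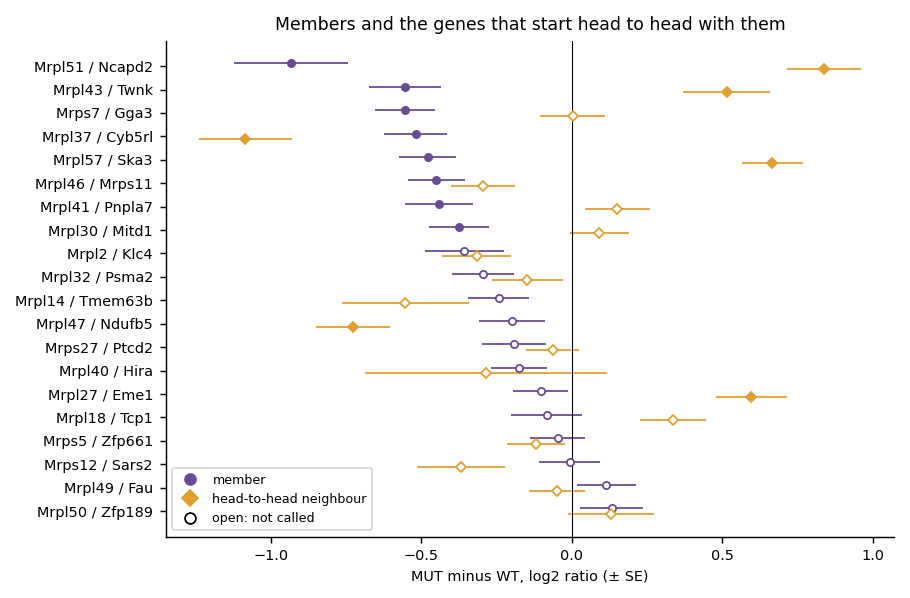
Difference MUT minus WT in log2 ratio (x axis) with its SE for members (circles) and the genes that start head to head with them (diamonds), 1 pair per row and 3 pools per group. Filled symbols are called; Mrpl51, Mrpl43 and Mrpl57 lie left of 0 while their neighbours Ncapd2, Twnk and Ska3 lie right of it.

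Other families of the same organelle and of the cytosol moved by other amounts. Of 82 tested nuclear genes for respiratory chain and ATP synthase subunits, whose complexes hold the products of mitochondrial translation, 77 were called lower (93.9%, against 18.8% of all genes). Their median was 0.05, −0.31 and 0.08 in WT and −0.93, −0.98 and −0.91 in MUT, a median difference of −0.87, which was −0.49 with median centring and 0.09 with spike-ins. Cytosolic ribosomal proteins, which make up the ribosomes of the cytosol, had 0 of 76 called in either direction by limma, against 18.8% lower and 14% higher of all genes. At an unadjusted limma p under 0.05 they had 0 lower, against 25.1% of all genes, and 10 higher (13.2%), a smaller share than the 20.8% of all genes. Their medians were 0.06, 0.21 and 0.05 in WT and 0.32, 0.24 and 0.20 in MUT, a median difference of 0.14 after loess, 0.64 with median centring and 1.09 with spike-ins. With median centring 38 of the 76 were called higher, against 18.3% of all genes, and with spike-ins 74 of the 76, against 61.4%. Under every setting the median of the mitochondrial ribosomal genes of either subunit lay between those of these families, an order that spike-in scaling could not change. The differences between families were not tested.

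The rest of the mitochondrial translation system was measured from lists of known genes. Mitoribosomal proteins under other names had 3 of 8 called lower (37.5%, against 18.8% of all genes). These were Aurkaip1 at −0.53 ± 0.10, Mrps18c at −0.41 and Mrps18a at −0.35. The uncalled 5 were Mrps18b at −0.30, Dap3 at −0.28, Gadd45gip1 at −0.12, Chchd1 at 0.06 and Ptcd3 at 0.09. Translation factors had 4 of 16 called lower: the elongation factors Gfm1 (−0.77 ± 0.10, limma adjusted p = 0.00172) and Tufm (−0.51), the recycling factor Gfm2 (−0.51) and the initiation factor Mtif3 (−0.46). Aminoacyl-tRNA synthetases of mitochondria, which charge the organelle's tRNAs, had 3 of 16 lower (Aars2 −0.60, Fars2 −0.54 and Cars2 −0.38). Assembly and rRNA modification factors had 2 of 23 lower (Mpv17l2 −0.52 and Mrm1 −0.39). Shares of 25%, 18.8% and 8.70% in the last 3 lists stand beside 18.8% of all genes, and with spike-in scaling all of the genes named here were above 0.

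Protein import genes had 3 of 15 called lower (20%), near the 18.8% of all genes, with a list median of −0.24. The lowest was Timm17a, a channel subunit of the inner membrane, at −1.08 ± 0.13 (limma adjusted p = 0.00106). Of 11 genes of mitochondrial transcription and the nucleoid, 9 were above 0 after loess, with a median of 0.15. Called were Polrmt, the organelle's RNA polymerase, lower at −0.40, which became 0.55 with spike-ins, and Twnk, higher at 0.51. These calls are 9.09% in each direction, against 18.8% lower and 14% higher of all genes. Among 10 regulators of mitochondrial biogenesis, 7 were above 0 after loess, with a median of 0.23. Lower calls were made for 2 (20%) and a higher call for 1 (10%), near the shares of all genes. Ppargc1a, a coactivator that raises mitochondrial gene programmes, had 0.17, −0.11 and 0.32 in WT and −2.63, −1.32 and −1.36 in MUT. Its difference was −1.90 ± 0.33 (limma adjusted p = 0.00528). Esrra, a nuclear receptor that works with it, was at −1.19 ± 0.12 (limma adjusted p = 0.000627), and both were below 0 under each scaling. Myc, a growth regulator, was higher at 0.78 ± 0.15 (limma adjusted p = 0.00870). The factors named for the motifs above were not called, with Nrf1 at 0.35 ± 0.16, Gabpa at 0.41 ± 0.13 and Yy1 at 0.08 ± 0.09 (limma adjusted p = 0.152, 0.0549 and 0.582).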

How the data were processed

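The submitters' processing notes name Agilent Feature Extraction 10.7.3.1 for the 6 arrays. The deposited scanner files hold spot and local background intensity as medians in each channel. They also give the software's own log10 ratio, Cy5 over Cy3. The authors' value table is that log10 ratio after rounding, differs from it by at most 0.00499, and has a median of 0 on each array. It was used as an alternative. The intensity values as deposited were corrected by normexp (offset 50), and log2 ratios were normalized by loess within arrays giving control spots no weight. Outlier spots and controls were then dropped, no spot was saturated, and spots of a probe were averaged. MUT was compared with WT by limma 3.58.1 (lmFit, eBayes, no covariate; R 4.3.3, data.table version 1.17.8) over 29002 tested probes with Benjamini-Hochberg adjustment. Values with ± are SE from 3 arrays per group. Loess sets the typical probe of each brightness to 0, so a shift common to all RNA cannot be seen. The number of arrays limits the precision.

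RefSeq accessions were matched without versions to a GRCm38.p6 table. The file headers name mm9, so array coordinates were not used, and coordinates and promoters printed are those of the RefSeq promoter table. A gene is its brightest tested probe. Named members were, in each subunit, the 6 called genes with the largest difference in each direction and the 3 with the smallest, with Mrps30, Mrps36, Mrpl47, Mrpl55, Mrps24, Mrps28, Mrpl10 and Mrpl12, and from each context list the smallest p-values. Members, lists and tests were chosen with earlier results of these data known. In simulated data, 200 of 28939 probes were changed. The test recovered 8.96% of those changed by 0.5, 55.2% by 1 and 93.9% by 2 on the log2 scale. Unchanged probes made up 3 of 108 calls. With so few changed probes the adjusted cut-off was stricter than in the data, so these shares do not give the recovery of members. Figures used Python 3.11.15 and matplotlib 3.10.9.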

Additional observations from a re-analysis of the deposited data

How the results depend on the processing

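With arrays set to spike-in controls, 18935 probes were called and members had 0 lower and 22 higher calls, with medians of 0.71 (large) and 0.64 (small). In that scaling named members turned from below to above 0: Mrpl51 0.022, Mrpl42 0.18, Mrpl12 0.18, Mrpl54 0.38, Mrpl43 0.40, Mrpl55 0.41, Mrpl28 0.94, Mrpl48 0.93, Mrpl9 0.92, Mrps25 0.15, Mrps36 0.30, Mrps16 0.33, Mrps34 0.36, Mrps7 0.40, Mrps12 0.95, Mrps5 0.91, Mrps30 0.87, Mrpl47 0.76, Mrps24 0.42 and Mrps28 0.58. The spike-ins, 10 probes per array, add 0.95 to each difference, and their shift ran from 0.01 to 1.03 within WT. With median centring 1 member was called lower, medians were 0.096 and 0.014, and Mrpl28 was 0.28, Mrpl48 0.32, Mrpl9 0.26, Mrps12 0.33, Mrps5 0.25, Mrps30 0.22 and Mrpl47 0.11. Medians were −0.16 and −0.25 on processed signals, −0.19 and −0.25 in the deposited value table and −0.13 and −0.15 on Cy5 alone, where 13 members were lower (17.6% against 15.3% of all genes). The fit with a row block sets the MUT mean against WT pool 1 alone, so its calls cannot be read as an effect of the row. Blocking on slide row gave 2194 probes and 3 lower members (4.05% against 7.45% of all genes). The signs of members near 0 turned elsewhere too: Mrps12 to 0.0085 without background correction, 0.092 on processed signals, 0.076 in the value table, 0.21 on Cy5 alone and 0.010 with the row block; Mrpl48 to 0.068, 0.043, 0.020 and 0.019 in the last 4 of these; Mrps9 to −0.092 with the row block. Array weights turned Mrpl9 to 0.0095, Mrps9 to −0.028 and Mrpl10 to −0.026. Leaving out 1 pool at a time gave 3831 (WT pool 3) to 9536 (MUT pool 1) called probes. Lower members ran from 10 (13.5% against 11.2% of all genes) to 32 (43.2% against 22.7%), with 15 and 4890 probes without WT pool 1. Medians were then −0.26 to −0.22 and −0.37 to −0.27. Over these, Mrpl28 ran from −0.094 to 0.10, Mrps9 from −0.033 to 0.076, Mrps12 from −0.059 to 0.041, Mrpl9 from −0.078 to 0.031, Mrpl10 from −0.052 to 0.18 and Mrpl48 from −0.12 to 0.066. The cause of these shifts was not tested. Pools with the same number correlated at 0.14, 0.07 and 0.20 in their deviations, so numbers were not taken as pairs. With the pool number as a block 7245 probes were called and 22 members were lower (29.7% against 17.9% of all genes), with medians of −0.25 and −0.32. Of 437 values of named members under alternatives, 344 kept direction and call, 38 lost the call, 5 gained one and 50 turned sign. Weak signal limits Mrpl21. The simulation changed 200 probes, whereas 7584 were called in the data, so its adjusted cut-off was stricter. Its recovery of 8.96% at a change of 0.5 is thus not the recovery of members of that size.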
